A study of Mus musculus with 4 samples.

Results

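The genes described here are 10 members of the Notch pathway: the receptors Notch1, Notch2 and Notch3, the ligands Jag1 and Dll1, the nuclear effectors Hes1, Hey1, Hey2 and Heyl, and the feedback inhibitor Nrarp. They were taken by gene symbol from the platform annotation, which assigned 18 probe sets to them, of 45101 probe sets in the table and 18193 genes with a symbol of their own. A probe set is a group of short probes that together report 1 transcript region. MC3T3-E1 is a clonal preosteoblast line from newborn C57BL/6 mouse calvaria, labelled fibroblast-like. It was grown for 3 or 6 days in normal medium, which was MEM α containing fetal bovine serum at 10%, or in osteogenic medium. The latter had the same base with beta-glycerophosphate, a phosphate donor, at 10 mM and ascorbic acid 2-phosphate, a stable form of vitamin C, at 150 µM. Each of the 4 combinations was measured on 1 Affymetrix Mouse Genome 430 2.0 array, so no difference between single arrays has a replicate error or a test. The labels record more alizarin red staining, a stain for mineral, in osteogenic medium at day 6.

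Notch receptors are cell-surface proteins that are cut when a ligand on a neighbouring cell binds them. The freed intracellular part enters the nucleus, joins the DNA-binding protein RBPJ and switches on target genes, of which the Hes and Hey repressors and Nrarp are the best known. In the bone lineage the pathway is known for holding back osteoblast maturation while keeping progenitor cells, and for effects that depend on the stage of the cell.

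Promoter sequence is shown for 3 members whose signals contrast below, the ligand Jag1, the receptor Notch3 and the effector Hey2. RefSeq windows on GRCm38.p6 were at hand for 7 of the 10 members, in 8 windows running from 250 bases before to 50 bases after an annotated start. No window was at hand for Hes1, Hey1 or Heyl, so their promoters were not searched. Searched on both strands were GTGGGAA, the core that RBPJ recognises, CACGCG, a site type bound by Hes proteins, and the E-box CACGTG, bound by many basic helix-loop-helix factors. No match of one motif overlapped that of another, and the E-box reads the same on both strands. The bases before the start are printed in lower case with motif matches in capitals. For Hey2 the first 3 transcribed bases complete a match. All 3 genes lie on the minus strand, at chr2:137116521-137116770 for Jag1, chr17:32166891-32167140 for Notch3 and chr10:30842781-30843033 for Hey2.
Jag1: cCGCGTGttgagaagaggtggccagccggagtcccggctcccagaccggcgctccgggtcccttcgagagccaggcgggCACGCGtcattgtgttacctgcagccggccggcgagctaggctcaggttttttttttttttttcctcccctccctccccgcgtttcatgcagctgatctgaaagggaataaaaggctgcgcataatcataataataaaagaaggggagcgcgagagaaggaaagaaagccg
Notch3: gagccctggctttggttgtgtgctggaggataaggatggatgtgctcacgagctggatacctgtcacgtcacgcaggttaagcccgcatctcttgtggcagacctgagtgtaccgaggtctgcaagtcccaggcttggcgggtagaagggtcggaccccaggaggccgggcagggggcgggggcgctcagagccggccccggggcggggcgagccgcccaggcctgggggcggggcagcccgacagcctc
Hey2: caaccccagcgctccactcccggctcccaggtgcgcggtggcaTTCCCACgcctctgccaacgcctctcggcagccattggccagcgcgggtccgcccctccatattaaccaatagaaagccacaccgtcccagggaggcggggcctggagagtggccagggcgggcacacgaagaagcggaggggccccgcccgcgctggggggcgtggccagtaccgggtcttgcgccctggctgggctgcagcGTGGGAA
The RBPJ core was found in 1 of the 7 members with a window, Hey2, at 207 and at 4 bases before the start, on opposite strands. Of all 32851 promoter windows of this length, 6.38% hold it. CACGCG was found in 3 members, at 249 and 171 bases before the start of Jag1, 42 bases before that of Notch2 and 68 bases before that of Dll1, against 9.27% of all windows. The E-box was found in Nrarp, 108 bases before the start, against 7.15% of all windows. A match describes these letters in this window and does not show binding.

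Signals are intensities on a linear scale, each array shifted to a common 75th percentile. A floor at the pooled median of all signals, 57.8, stands in for detection calls. Log2 differences were taken after values below the floor had been raised to it, so a difference with 1 array at the floor is a bound. Signals of different probe sets are not compared as levels. Of the 18 member probe sets, 9 were above the floor on all 4 arrays, 4 on some arrays and 5 on none. By the brightest probe set of each gene, Notch1, Notch2, Notch3, Jag1 and Hes1 were above the floor on all arrays, Dll1, Heyl and Nrarp on some, and Hey1 and Hey2 on none.

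**Figure D1:**
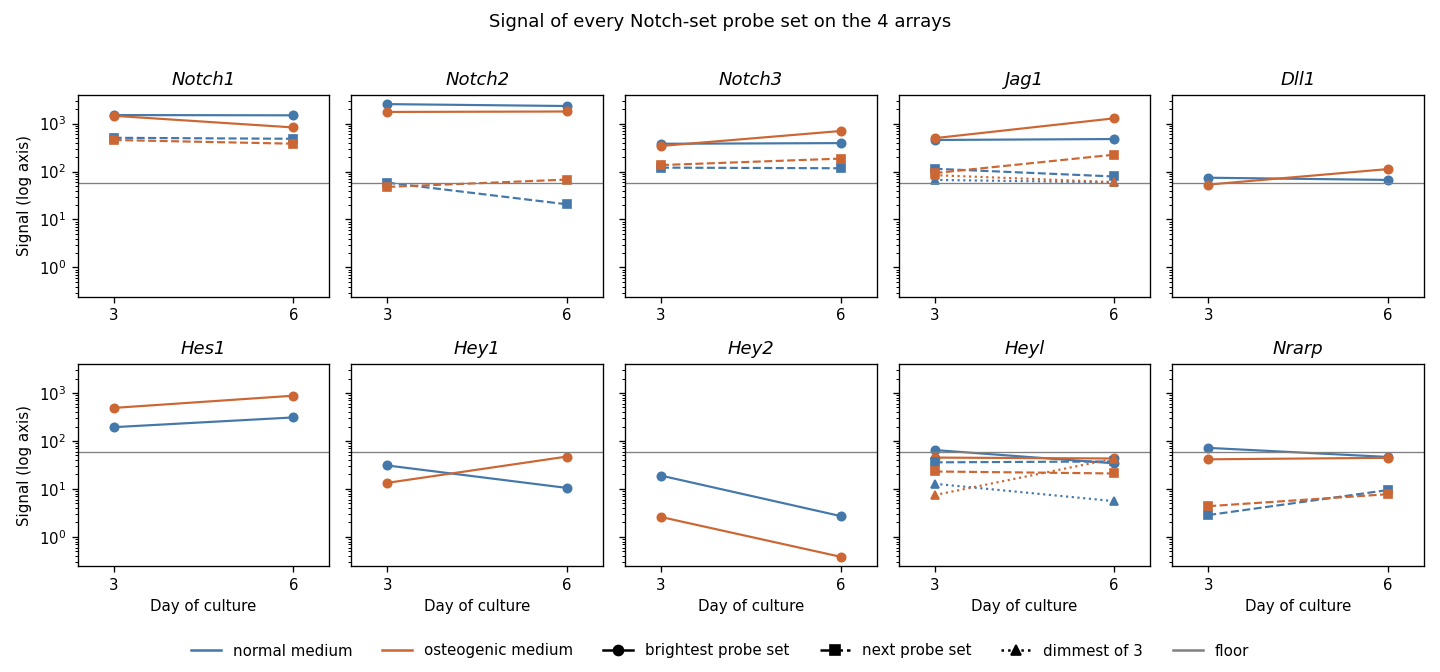
Signal (log axis) of each probe set of the 10 genes at days 3 and 6 in normal and osteogenic medium, 1 array per point, with the floor of 57.8 as a grey line. Hes1 lies higher in osteogenic medium at both days, the brightest Jag1 and Notch3 probe sets separate at day 6, and Hey1 and Hey2 stay under the floor.

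Hes1, which encodes a repressor of the Hes family, had the highest medium difference of the set at day 3. Its signal in normal medium was 194 at day 3 and 309 at day 6, and in osteogenic medium 489 at day 3 and 878 at day 6. Both osteogenic arrays were thus above both normal arrays, an order whose share among all genes was not counted. Hes1 was 2.52-fold higher in osteogenic medium at day 3 and 2.84-fold higher at day 6. A medium difference at least as large upward was found for 0.717% of measured genes at day 3 and 1.63% at day 6. The signal was also higher at day 6 than at day 3 in both media, by 0.67 on the log2 scale in normal and 0.85 in osteogenic medium. Hes1 has a single probe set, so no other probe set bears on these values.

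Jag1, a ligand of the Serrate type, differed between media at day 6. Its brightest probe set, 1434070_at, had signals of 455 and 476 in normal medium at days 3 and 6, and of 496 and 1286 in osteogenic medium. The osteogenic day 6 array stood above the other 3, which lay close together. At day 6 the signal was 2.70-fold higher in osteogenic medium, against 1.09-fold at day 3. The probe set 1421106_at gave 114 and 78.8 in normal and 92.7 and 225 in osteogenic medium at days 3 and 6, which is 2.85-fold higher in osteogenic medium at day 6. The dimmest, 1421105_at, read between 59.5 and 84.0 on all arrays, just above the floor, with a log2 difference of 0.02 at day 6. Averaging the 3 probe sets gave 0.99 for Jag1 at day 6, short of the 2-fold limit used for calls, a log2 difference of 1.

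Dll1, a ligand of the Delta type, stayed close to the floor. Its single probe set read 74.3 and 66.9 in normal medium at days 3 and 6, and 53.4 and 112 in osteogenic medium. The osteogenic arrays were thus the lowest and the highest of the 4. Dll1 was at least 1.28-fold lower in osteogenic medium at day 3, where that array was under the floor, and 1.68-fold higher at day 6.

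Among the receptors, Notch3 was higher and Notch1 lower in osteogenic medium at day 6, both by less than 2-fold. The Notch3 probe set 1421965_s_at, whose suffix marks probes that can match more than 1 transcript, read 379 and 391 in normal medium at days 3 and 6, and 341 and 699.5 in osteogenic medium. The osteogenic day 6 array was the highest, 1.79-fold above the normal array of that day. The dimmer probe set 1421964_at read 121 and 117 in normal and 136 and 186 in osteogenic medium, 1.59-fold higher at day 6. At day 3 their log2 differences had opposite signs, -0.15 and 0.18.

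Notch1, a receptor also known for directing T cell development, was lowest on the osteogenic day 6 array. The probe set 1418634_at read 1503 and 1486 in normal medium at days 3 and 6, and 1452 and 830.2 in osteogenic medium. At day 6 that is 1.79-fold lower in osteogenic medium, while the day 3 log2 difference was -0.05. The probe set 1418633_at read 505 and 482 in normal and 454 and 380.3 in osteogenic medium, with a log2 difference of -0.34 at day 6. Both probe sets placed the osteogenic day 6 array lowest, with differences of unequal size.

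Notch2, a receptor with a known part in skeletal disease when overactive, was lower in osteogenic medium at both days by its brightest probe set. The signals of 1455556_at were 2543 and 2322 in normal medium at days 3 and 6, and 1747 and 1785 in osteogenic medium. The log2 differences were -0.54 at day 3 and -0.38 at day 6. At least as low were 8.67% of measured genes at day 3 and 17.3% at day 6. The other probe set, 1451889_at, read 58.7 and 68.0 on the normal day 3 and osteogenic day 6 arrays and was under the floor on the other 2. Averaging both probe sets gave -0.28 and -0.07 for Notch2.

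The Hey genes and Nrarp were under the floor on most arrays, and Hey1 and Hey2 on all. Hey1 read between 10.5 and 47.3 and Hey2 between 0.385 and 19.0 on the 4 arrays, so neither has a difference to report. The brightest Heyl probe set read 64.7 on the normal day 3 array and 34.2 to 45.0 elsewhere, and the other 2 were under the floor throughout. The brighter Nrarp probe set read 71.7 on the normal day 3 array and 41.4 to 46.4 elsewhere, which bounds its day 3 difference at 1.24-fold lower or more in osteogenic medium. Values under the floor have no order here, and the array gives no evidence on whether these transcripts are absent. Hey2, whose promoter window holds both RBPJ core matches shown above, is among them.

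**Figure D2:**
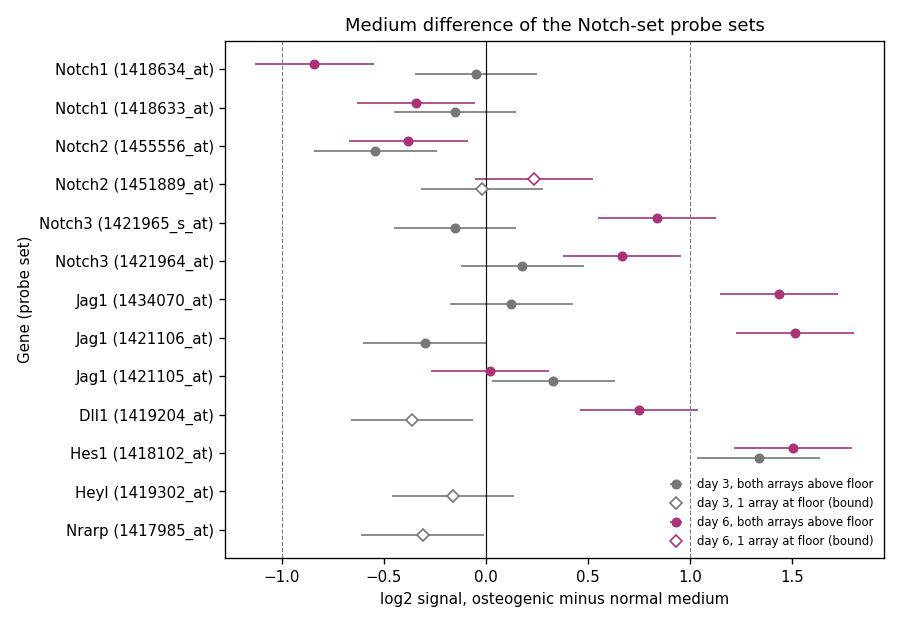
Log2 signal in osteogenic minus normal medium for each member probe set above the floor on at least 1 array of a pair, at day 3 (grey) and day 6 (purple). Bars are plus and minus 1 SD of the error estimated from other genes' probe sets, 0.30 at day 3 and 0.29 at day 6. Open diamonds are bounds and dashed lines mark 2-fold. Hes1 lies past 2-fold at both days and 2 Jag1 probe sets at day 6.

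An error for a single medium difference was taken from genes with several probe sets. Over the 2 brightest measured probe sets of 5020 genes at day 3 and 4967 at day 6, its SD was 0.30 and 0.29 on the log2 scale. This covers probe error only, not the spread between cultures. The Hes1 differences of 1.33 and 1.50 and the Jag1 difference of 1.43 at day 6 were more than 4 times that SD. Those of Notch3 (0.84), Notch1 (-0.84) and Dll1 (0.75) at day 6 were between 2 and 3 times it. The SD was taken over genes of all signal levels above the floor, so it may not hold for Dll1, which read close to the floor. With a pseudocount of 50 in place of the floor the Dll1 difference was 0.47.

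Counted at 2-fold over the measured members, Hes1 was the only one of 8 higher at day 3 and 0 were lower, where 1.99% of 11861 measured genes were higher and 1.59% lower. At day 6 Hes1 and Jag1 were higher and 0 lower of 6, where 4.18% of 11901 genes were higher and 2.78% lower. Over the measured members the median log2 difference was -0.16 at day 3 and 0.79 at day 6, against 0.01 over all genes at both days. With the floor at the 40th percentile the day 6 median was 0.41, over 9 members, and with neither floor nor filter the day 3 median was -0.50, over 10. The members that count as measured differ between days, since Heyl and Nrarp dropped under the floor on both arrays at day 6. At day 3 both genes were above the floor on the normal array only, so the filter fixed their negative signs. With the floor at the 60th percentile, which leaves out both and Dll1, the day 3 median was -0.05 over 5 members. The medians of -0.16 and 0.79 rest on 8 and 6 genes that lay on both sides of zero.

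**Figure D3:**
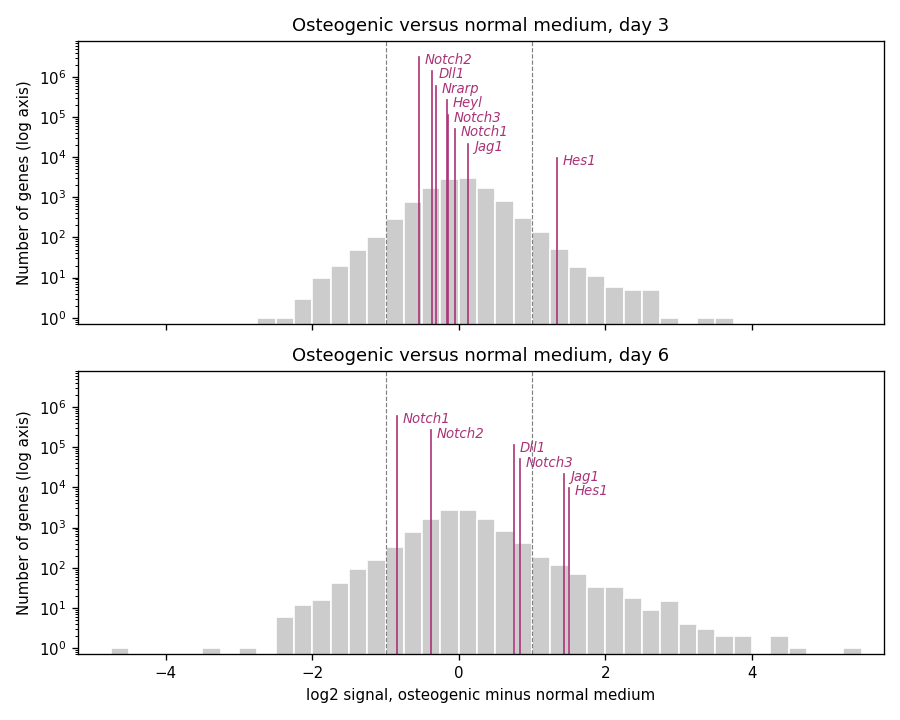
Number of genes (log axis) by log2 signal in osteogenic minus normal medium at day 3 and day 6, in bins of 0.25, with the measured members as lines whose height has no meaning. At day 3 Hes1 alone lies outside the dashed 2-fold limits, at day 6 Hes1 and Jag1.

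Between day 3 and day 6 in normal medium, 0 of 8 measured members were higher and 0 lower by 2-fold, against 0.741% of 11736 genes in each direction, and the largest difference was that of Hes1. In osteogenic medium Jag1 (1.37) and Notch3 (1.04) were higher at day 6 and 0 were lower of 6, where 3.7% of 11947 genes were higher and 2.62% lower. Dll1 was higher by at least 0.96, and Notch1 was lower, at -0.81. With probe sets averaged Jag1 came to 0.72 and Notch3 to 0.74, both under 2-fold. These comparisons reuse the arrays of the medium comparisons, so they are not separate evidence.

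The medium difference changed from day 3 to day 6 by 1.31 for Jag1 and 1.11 for Dll1, the only 2 of 8 members past 2-fold upward, with 0 downward, where 4.42% of 12503 genes were past it upward and 3% downward. The Dll1 value starts from a bound at day 3. Jag1 came to 0.94 with probe sets averaged, and Dll1 to 0.74 with a pseudocount of 50 in place of the floor, both under 2-fold. Notch3 came to 0.99 and Notch1 to -0.79, while Hes1, already apart at day 3, came to 0.17. This quantity uses all 4 arrays and has no test.

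The only test that 4 such arrays allow is an additive limma model with terms for medium and day. It leaves 1 residual degree of freedom, and a medium difference that is not equal at both days enters that residual. Hes1 had a mean medium effect of 1.42 (SE 0.19) with a limma adjusted p of 0.18, higher in osteogenic medium at both days. Notch2 had -0.46 (SE 0.19) with an adjusted p of 0.40, and Jag1 0.78 (SE 0.34) with 0.43. The adjusted p of Notch1 was 0.53, of Notch3 0.68 and of Dll1 0.84, by their brightest probe sets. No probe set passed an adjusted p of 0.05, so 0% of 26200 were called, while 3378 had an unadjusted p under 0.05. With each probe set's own variance 0 passed after adjustment and 1636 before it.

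Rbpj, the DNA-binding partner of cut Notch receptors, was lower in osteogenic medium at day 3 on all 3 of its probe sets. The brightest read 3745 and 4084 in normal medium at days 3 and 6, and 1823 and 2762 in osteogenic medium. The day 3 difference was 2.05-fold lower by this probe set, and 1.39% of measured genes were at least as low. The other 2 probe sets gave 1.88-fold and 2.14-fold lower. At day 6 the 3 gave 1.48-fold, 1.17-fold and 1.24-fold lower. The limma adjusted p of the brightest was 0.27.

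Of 61 other pathway genes in 6 lists, 56 had a probe set of their own symbol, and 47 were measured at day 3 and 46 at day 6. At day 3 Rbpj was the only one past 2-fold, with 16 above and 31 below zero and a median log2 difference of -0.13. At day 6 Bhlhe40 was the only one past 2-fold, with 22 above and 24 below zero and a median of -0.05. These single calls are no more than the background shares given above would place among as many genes.

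Bhlhe40, a basic helix-loop-helix repressor related to the Hes family, read 1009 and 942 in normal medium at days 3 and 6, and 1521 and 3212 in osteogenic medium. It was 1.51-fold higher at day 3 and 3.41-fold higher at day 6, with a limma adjusted p of 0.28. Hes6, an inhibitor of Hes1, had log2 differences of 0.62 at day 3 and 0.19 at day 6, though its other probe set gave -0.30 at day 6. Bhlhe41, a close relative of Bhlhe40, was near the floor, with a bound of -0.35 at day 3 and 0.62 at day 6. Hes2, Hes3, Hes5 and Hes7 were under the floor on all arrays.

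Among other ligands and receptors, Notch4 and Dll3 were under the floor on all arrays. Jag2 (0.04 at day 3 and 0.39 at day 6) and Dlk2, a non-canonical ligand (-0.39 and 0.39), had log2 differences of less than 2-fold. The other Dlk2 probe set, also above the floor on all arrays, gave 0.18 and 0.06. Of 10 measured genes for ligand and receptor modification, none passed 2-fold between media. Mib2, a ubiquitin ligase that acts on ligands, went from -0.29 at day 3 to 0.79 at day 6, and Neurl1b, another such ligase, from 0.21 to -0.84.

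The 7 measured protease genes had medians of -0.01 at day 3 and -0.12 at day 6. Psenen, a subunit of the gamma-secretase that frees the intracellular part of Notch, was 1.58-fold higher at day 3 and 1.51-fold higher at day 6. Ncstn, another subunit, was 1.51-fold lower at day 3 and 1.08-fold lower at day 6. Of 14 measured genes of the nuclear complex and corepressors, 11 lay below zero at day 3 and 7 at day 6. Tle2, a Groucho-type corepressor that Hes proteins recruit, had log2 differences of -0.58 and -0.75, and its relative Tle4 of -0.74 and 0.17. Of 9 turnover genes and inhibitors none passed 2-fold between media. Dtx3 had -0.88 and -0.33, and Dtx4 0.82 and 0.24, with the opposite sign, -0.47 and -0.16, from the other Dtx4 probe set.

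**Figure D4:**
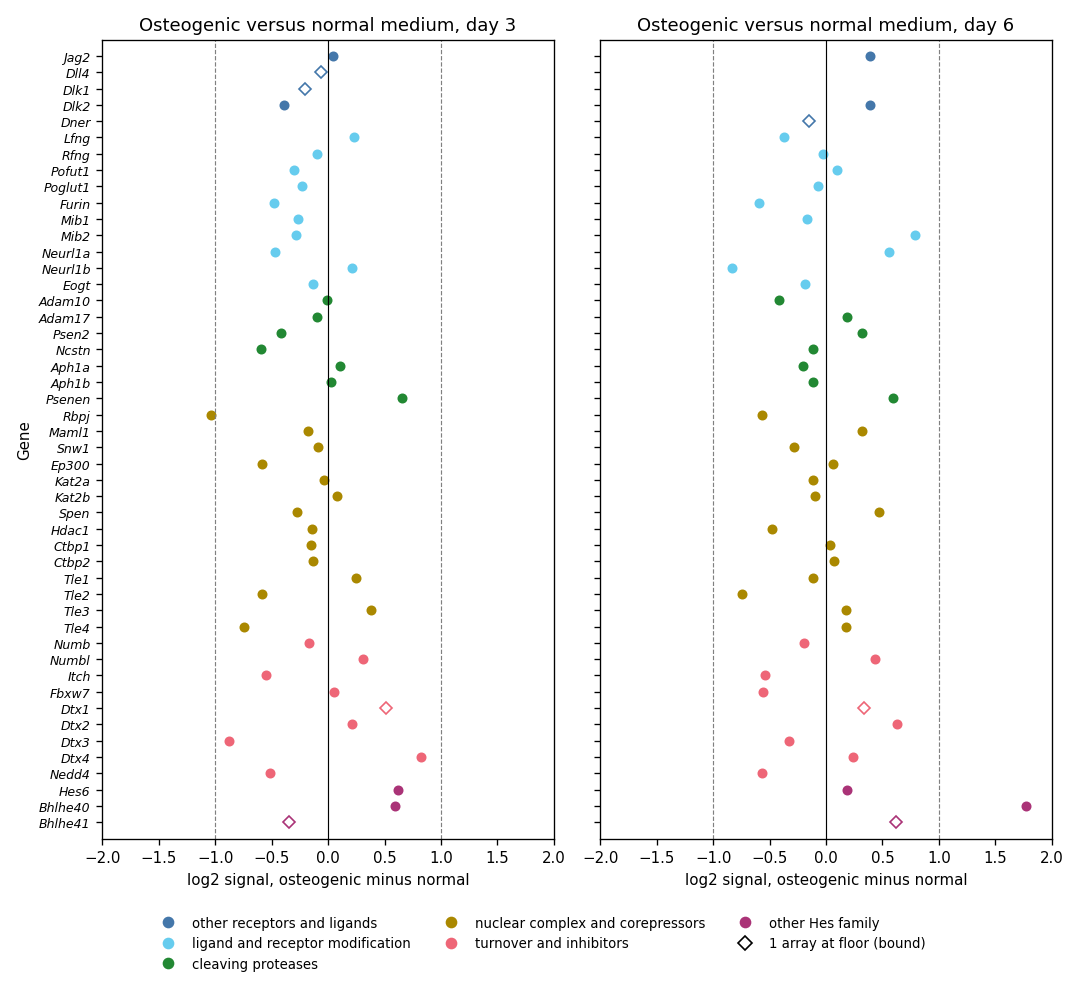
Log2 signal in osteogenic minus normal medium at day 3 and day 6 for the other pathway genes measured, each by its brightest probe set and coloured by list, with dashed lines at 2-fold. Rbpj at day 3 (-1.04) and Bhlhe40 at day 6 (1.77) lie outside the limits.

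The Hes1 pattern, the widest of the members with a range of 2.18 on the log2 scale, was compared with 10249 genes above the floor on all arrays by the distance of centred log2 signals. The 5 nearest were Lrrc15, which encodes a leucine-rich repeat membrane protein (distance 0.13), C1qtnf7 (0.21), the glucose transporter gene Slc2a3 (0.29), the homeobox gene Dlx3 (0.30) and the lysosomal amino acid transporter gene Slc66a1 (0.33). Lrrc15 read 102 and 180.4 in normal medium at days 3 and 6, and 263 and 454 in osteogenic medium. Within a distance of 0.5 lay 30 genes, a description over 4 arrays with no test.

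The 4 arrays resembled each other, with Pearson's r across 26200 probe sets between 0.968 and 0.988. The osteogenic day 6 array, on which the Jag1, Notch3 and Notch1 differences rest, had a signal of 746 for the 5′ end of 18S ribosomal RNA against 5202 to 9162 on the others. Its middle 18S probe set was also the lowest, at 409 against 784 to 994. Its GAPDH 3′ to 5′ ratio, 0.763, lay within the range of the others, 0.756 to 0.769. Its beta-actin ratio, 1.25, was above that of the others, 1.17 to 1.23. The part of the 18S and beta-actin controls in these differences was not tested. The day 3 difference of Hes1 does not use that array.

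Osteoblast identity was checked on 6 marker genes with a probe set of their own symbol, all above the floor on 4 of 4 arrays, among them Col1a1 and the osteoblast transcription factor gene Sp7. Past 2-fold between media were Ibsp, which encodes bone sialoprotein, higher in osteogenic medium by 3.53 at day 3 and 5.44 at day 6, and the alkaline phosphatase gene Alpl, by 1.55 and 1.70. The 6, out of 9 osteoblast markers listed, did not all rise. Their median log2 difference was 0.26 at day 3, with 3 below zero and the lowest at -0.26. At day 6 their median was 0.22, with 0 below zero. Notch genes also serve vessel and mural cells, so the markers of those cells were read beside the Notch genes. Of 8 endothelial markers 3 were above the floor on any array and 0 on every array, and Pecam1, Cdh5, Tek, Tie1 and Emcn were under it on all. The signal summed over the 8, 200.1 to 257, thus includes values under the floor. Of 7 mural and smooth muscle markers 5 were above it on some array, and Myh11 and Rgs5 on none. Summed over the 7, the signal was 49513 and 39564 in normal medium at days 3 and 6, and 46185 and 32778 in osteogenic medium. The brightest genes weigh most in such a sum, which need not follow each marker. Within that list 4 were measured between media at day 6, of which 2 lay above and 2 below zero. Cspg4 was higher in osteogenic medium by 1.25 at day 6 on the log2 scale and Des by at least 1.50. Cnn1 was higher by 1.98 at day 3 and at -0.91 at day 6. All 4 adipocyte markers were under the floor. Of 5 leukocyte markers only Lyz2 was above it, with log2 differences of -0.06 at day 3 and -1.24 at day 6. Of 6 chondrocyte markers Acan and Matn1 were under it, Col2a1 was higher by 1.12 at day 3 and 2.28 at day 6, and Cnmd by 1.36 and 1.33. Over the 4 chondrocyte markers measured the median was 0.59 at day 3, with 1 below zero, and 0.87 at day 6, with 0 below zero. The part of these markers in the Hes1, Jag1 and Notch3 values was not tested. In bulk RNA, fewer cells of a kind and less RNA per cell cannot be told apart.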

How the data were processed

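Labelling used a 3′ in vitro transcription kit and the arrays were Affymetrix Mouse Genome 430 2.0, per the labels' protocols. What the authors deposited is an intensity for every probe set, linear and scaled to a mean of 500.0 after trimming 2% at each end. No software or detection calls were at hand. Gene symbols are those of GEO's platform annotation, and all 18 member probe sets matched NCBI RefSeq (GRCm38.p6, used for names and promoters) by Entrez ID.

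Arrays were rescaled to equal 75th percentiles, leaving out 64 control probe sets, by factors of 1.003, 1.02, 0.988 and 0.991. Signals were floored at the pooled 50th percentile, 57.8, and put on a log2 scale. The probe set of highest mean stood for a gene. A gene entered a comparison when either array was above the floor, and was called at 2-fold. The medium effect used limma 3.58.1 in R 4.3.3 with Benjamini-Hochberg adjustment. Promoter motifs were matched by letters. The steps were tested on simulated arrays. With 1 array per group, their number limits the precision of every value.

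Named with values were all members, other pathway genes past 2-fold between media and up to 2 more per list with the largest difference, and the 5 genes most like the member of widest range. Members and lists were chosen with earlier results of these data known. Marker genes and genes given only as under the floor were named after their values were seen.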

Additional observations from a re-analysis of the deposited data

Results flagged for a closer look

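Some of the members and other pathway genes named had medium differences of opposite signs at days 3 and 6. So had Cnn1 among the cell type markers past 2-fold. With 1 array per group, none of these changes was tested, and the share of all genes with opposite signs was not counted. Within 1 probe error SD of zero were Notch3 (-0.15), Mib2 (-0.29) and Neurl1b (0.21) at day 3 and Tle4 (0.17) at day 6. Their signs on those days are thus not settled. On the log2 scale the medium difference moved up from day 3 to day 6 by 0.99 for Notch3, 1.11 for Dll1, 0.77 for Dlk2, 1.08 for Mib2, 0.91 for Tle4 and 0.96 for Bhlhe41. For Neurl1b the change was -1.05, and for the smooth muscle marker Cnn1, looked up after its values were seen, it was -2.89. The day 3 values of Dll1 and Bhlhe41 are bounds, as is the day 6 value of Bhlhe41. The day 3 sign of Notch3 turned when its probe sets were averaged, to 0.01. By its other probe set Dlk2 had the same sign at both days, 0.18 and 0.06, with a change of -0.12.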

How the results depend on the processing

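The scaling was left as deposited, set to equal medians or replaced by quantile normalization. The floor was put at the pooled 40th or 60th percentile, replaced by a pseudocount of 50, or dropped with the filter, and a gene's probe sets were averaged. Of 216 single-gene values 202 moved by less than the probe error, and 14 by more. Many of the 202 could not move. The floor does not alter members bright on all arrays, and averaging does not alter a single probe set. Members under the 60th percentile floor were left out there, which gave 20 values in place of 28. The counts past 2-fold that moved most were these. With neither floor nor filter they were 3 at day 3, 4 at day 6, 2 between days in normal medium and 5 in osteogenic medium, over all 10 members. With averaged probe sets 1 member passed at day 6, 0 between days in osteogenic medium and 1 for the change between days. With the pseudocount 1 passed between days in osteogenic medium and 1 for the change, and with the higher floor 1 for the change. The change count was 3 as deposited, with Notch3 at 1.01, and 3 with neither floor nor filter. With the lower floor 3 passed between days in osteogenic medium. The members' median became -0.50 at day 3 and 0.47 between days in osteogenic medium with neither floor nor filter, and 0.41 at day 6 and 0.41 between days in osteogenic medium with the lower floor. The floor decides which of the dim members count, and genes near it have only bounds. Hes1 stayed past 2-fold at both days in each of the 7 alternatives that keep a floor or pseudocount, from 1.14 to 1.36 at day 3 and 1.37 to 1.52 at day 6. The lower and higher floors and the averaging could not move it, since its single probe set lay well above the floor on all arrays. The limma fit called 0 probe sets in each alternative run. The limma model pairs the media by day, with 1 array per group, and no other paired analysis was run.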
